A study of Mus musculus with 32 samples.

Results

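The 36 genes described here encode proteins of the Z-disc, the M-band and the filaments of the striated muscle sarcomere. They were taken by name, as a list of gene symbols, and all 36 were found among the 54838 genes of the expected count table, each in exactly 1 row. All 36 passed the low-count filter in every comparison. RNAseq was performed on whole tibialis anterior (TA) muscle, labelled as skeletal muscle, of C57BL6/J mice. The 32 libraries came from WT littermates and from *Mtm1* knockout (*Mtm1* KO) mice at postnatal day 1, 14, 21 and 35 (P1, P14, P21 and P35), with 4 libraries per genotype at each age. *Mtm1* encodes the phosphoinositide phosphatase myotubularin, and the KO allele lacks exon 4 in every tissue of the animal, so an effect that begins outside the muscle fibre cannot be told apart from one that begins inside it. The allele was made in a 129S2PAS strain and the line then brought onto this background. The files do not say whether libraries with the same number came from litter mates, and the labels name no second allele, transgene or treatment.

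A sarcomere is bounded by Z-discs, where thin actin filaments of opposite polarity are crosslinked by alpha-actinin, and is centred on the M-band, where thick myosin filaments are crosslinked by myomesins. Titin spans from Z-disc to M-band and nebulin runs along the thin filament. Many of these proteins come in paralogues that differ between slow, fast and developing fibres, so the balance of paralogues in a muscle follows its fibre types and its age. In X-linked myotubular myopathy (XLMTM), the human disease modelled here, fibres are small with central nuclei, and the excitation-contraction coupling apparatus is disorganised.

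The libraries held 49321019 to 85631391 counts, and the 36 genes together took 2.30% to 7.32% of the counts of a library. The lowest count of any of the 36 in any library was 150. *Mtm1* itself was read first as a check of the labels. At P35 WT libraries held 20.7 to 24.9 CPM (counts scaled to a common library size of 1000000) and KO libraries 3.32 to 3.95 CPM, and at P1 WT libraries held 5.26 to 6.02 CPM and KO libraries 2.32 to 3.91 CPM. The genotypes did not overlap at any age, and counts remained in KO, where the count covers the whole gene and the allele lacks 1 exon. Of the 10 skeletal muscle fibre markers, all were detected in every group. The summed level of 6 keratinocyte markers was 1568 to 6084 CPM in the 8 libraries of P1 and 2.49 to 7.06 CPM in the 24 later ones, so the P1 libraries held keratinocyte RNA. The summed level of 8 slow fibre markers was 1254 CPM in WT replicate 4 at P21 against 433 to 505 CPM in the other 3 WT libraries of that age.

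Sequence before the transcription start was available for 28 of the 36 genes, in 33 windows of 250 bases (RefSeq, GRCm38.p6). The windows of 7 genes called in KO against WT at P35 are printed. Genes that rose (*Myom3*, *Tpm3*, *Smpx*, *Pdlim3*) can so be read beside genes that fell (*Mybpc2*, *Myom1*, *Synpo2*). The window of *Pdlim7*, which was also called lower, is not printed and held no match to any of the patterns below. For *Tpm3* the more upstream of its 2 windows is given. Capitals mark matches, on either strand, to the E-box (CANNTG), to the MCAT element (CATTCC), to the MEF2 motif or to the CArG box, the letter patterns of muscle bHLH factors, TEAD factors, MEF2 factors and SRF, and no printed matches overlap.
Myom3, GRCm38.p6 chr4:135759465-135759714, plus strand: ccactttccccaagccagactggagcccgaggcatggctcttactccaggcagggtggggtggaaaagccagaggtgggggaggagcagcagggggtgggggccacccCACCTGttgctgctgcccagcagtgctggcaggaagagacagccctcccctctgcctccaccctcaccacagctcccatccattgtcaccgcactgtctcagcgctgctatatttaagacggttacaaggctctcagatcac
Tpm3, GRCm38.p6 chr3:90072401-90072650, plus strand: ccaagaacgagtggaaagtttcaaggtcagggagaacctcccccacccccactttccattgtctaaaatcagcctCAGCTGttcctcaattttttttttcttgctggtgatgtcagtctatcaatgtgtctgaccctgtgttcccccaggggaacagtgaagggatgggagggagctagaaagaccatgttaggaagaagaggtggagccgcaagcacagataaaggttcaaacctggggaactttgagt
Smpx, GRCm38.p6 chrX:157698723-157698972, plus strand: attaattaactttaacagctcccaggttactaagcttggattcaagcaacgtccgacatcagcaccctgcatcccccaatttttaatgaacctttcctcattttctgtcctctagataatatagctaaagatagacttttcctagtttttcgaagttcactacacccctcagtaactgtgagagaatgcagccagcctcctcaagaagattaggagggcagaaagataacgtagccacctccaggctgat
Pdlim3, GRCm38.p6 chr8:45885237-45885486, plus strand: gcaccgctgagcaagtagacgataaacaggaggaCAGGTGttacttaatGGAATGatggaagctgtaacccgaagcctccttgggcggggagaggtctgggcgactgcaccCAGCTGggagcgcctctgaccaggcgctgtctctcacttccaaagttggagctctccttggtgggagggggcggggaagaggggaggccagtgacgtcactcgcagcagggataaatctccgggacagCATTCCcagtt
Mybpc2, GRCm38.p6 chr7:44524670-44524919, minus strand: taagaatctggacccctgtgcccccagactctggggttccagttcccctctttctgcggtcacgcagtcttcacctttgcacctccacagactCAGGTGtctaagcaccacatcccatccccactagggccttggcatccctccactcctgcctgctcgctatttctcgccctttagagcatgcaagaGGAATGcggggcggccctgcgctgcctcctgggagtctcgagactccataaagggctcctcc
Myom1, GRCm38.p6 chr17:71019307-71019556, plus strand: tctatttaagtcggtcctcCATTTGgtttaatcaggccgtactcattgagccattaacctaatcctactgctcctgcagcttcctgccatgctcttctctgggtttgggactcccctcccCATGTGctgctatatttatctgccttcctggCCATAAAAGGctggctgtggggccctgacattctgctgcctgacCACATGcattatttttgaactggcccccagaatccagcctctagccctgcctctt
Synpo2, GRCm38.p6 chr3:123236150-123236399, minus strand: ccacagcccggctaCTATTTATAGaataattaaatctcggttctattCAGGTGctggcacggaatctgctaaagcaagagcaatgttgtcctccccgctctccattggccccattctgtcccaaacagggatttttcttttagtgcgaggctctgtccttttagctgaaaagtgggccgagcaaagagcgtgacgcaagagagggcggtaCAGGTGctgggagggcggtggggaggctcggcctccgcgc
An E-box was in 69.7% of the member windows and in 66.2% of all 32851 windows of this length, and an MCAT element was in 18.2% and 12.6%. The MEF2 motif was in 4 of the 33 member windows, those of *Ttn*, *Myoz2*, *Synpo2* and *Synpo2l*, against 0.508% of all windows. All 4 matches read CTA, then 4 letters that are A or T, then TAG. Looser spellings, such as ctatatttaa in the *Myom3* window, were not marked or counted. The CArG box was in 3 windows, of *Ldb3* and *Myom1*, against 1.47% of all. The 2 *Ldb3* windows overlap and share 1 and the same match, so it is counted in both. Among the windows printed, the *Smpx* window held none of the 4 patterns, those of *Myom3* and *Tpm3* held 1 E-box each, *Pdlim3* held 2 MCAT matches, *Mybpc2* held 1 MCAT match, *Myom1* held the CArG box and *Synpo2* the MEF2 motif, each of these 4 beside 1 to 3 E-boxes. These matches are letters in a window and were not tested as binding sites.

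Most of the set rose in WT muscle after birth. From P1 to P14, 25 of the 36 genes rose and 2 fell by edgeR's quasi-likelihood test (called: Benjamini-Hochberg adjusted p under 0.01 and a fold change over 1.5), against 24.7% of the 17435 genes tested that rose and 30.4% that fell. The median log2 fold change of the members was 1.15, that of all genes -0.0799 and that of the 10 skeletal muscle fibre markers 2.07. *Mybpc2*, the fast isoform of myosin binding protein C, changed most, from 248.5 to 403 CPM at P1 to 4178 to 6528 CPM at P14 (log2 fold change 4.03, adjusted p = 2.28e-07 by edgeR). *Actn3*, the alpha-actinin of fast fibres, rose by 3.76 and *Myoz3* by 3.53 on the log2 scale. The 2 genes that fell were *Myom3*, a myomesin of slow and intermediate fibres, from 94.1 to 107 CPM to 49.3 to 76.1 CPM (-0.71), and *Myoz2*, the slow fibre calsarcin (-0.78). *Tpm3*, the slow fibre alpha-tropomyosin, stood at 217 to 239.6 CPM at P1 and 195 to 237 CPM at P14 (-0.02, adjusted p = 0.83 by edgeR). The keratinocyte RNA of the P1 libraries moves with this comparison and its part in the result was not tested. With scaling by library totals the median of all genes was -0.85, and 15 members rose and 8 fell. Of all genes called with that scaling 13.75% rose, against 44.83% of those called with the main scaling. The members' median stood above that of all genes by 1.23 with the main scaling (TMM) and by 1.225 with library totals. This difference could hardly move, because a change of scaling shifts all genes by nearly the same amount.

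Between P14 and P21 in WT, 4 members rose and none fell, against 2.93% and 2.6% of 15337 genes. They were *Flnc*, the muscle filamin of the Z-disc (log2 fold change 0.91), *Actn2*, the alpha-actinin of all striated fibres (0.83), *Ldb3*, the Z-disc adaptor cypher (0.79), and *Smyd1*, a myosin assembly methyltransferase (0.77). Between P21 and P35, *Tcap*, the titin cap telethonin, rose (1.13) while *Ttn* (-1.03) and *Flnc* (-0.69) fell, against 1.4% rising and 1.05% falling of 15039 genes. *Flnc* from P14 to P21 was called in all 8 fits that left out 1 library, and each of the other 6 calls was lost in at least 1 such fit, with between 1 and 8 members called from P14 to P21 and between 0 and 2 from P21 to P35 when 1 library was left out. *Tpm3*, *Myom3* and *Myoz2* also stood lower at P35 than at P21 in WT, by 1.00, 1.78 and 1.08 on the log2 scale, without passing the threshold (adjusted p = 0.011, 0.013 and 0.012 by edgeR).

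Few differences between KO and WT were called for these genes before P21. At P1, 0 of the 36 genes were called (3 at an unadjusted p under 0.05, 0 by DESeq2), against 0.0442% of 18100 genes. At P14, groups did not overlap for 5 members, against 4.84% of 15728 genes, and 0 were called by edgeR's quasi-likelihood test (9 at an unadjusted p under 0.05, 1 by DESeq2), against 0.0318% of genes. With the replicate number as a block, which pairs the P14 libraries, 2 members were called, against 0.623% of genes. *Myom3* stood at 49.3, 76.1, 59.7 and 64.0 CPM in WT at P14 and at 137, 109, 111 and 94.1 CPM in KO. Every KO library was above every WT library. Its log2 fold change was 0.85 (SE 0.15, adjusted p = 0.12 by edgeR) without the block and 0.86 (adjusted p = 0.0061) with it, and DESeq2 called it too. *Mybpc2* stood at 4713, 4178, 6025 and 6528 CPM in WT and at 2291, 2755, 4126 and 4561 CPM in KO, lower in KO within each of the 4 numbered pairs although the groups overlapped. Its log2 fold change was -0.65 (adjusted p = 0.66 by edgeR) without the block and -0.68 (adjusted p = 0.0033) with it. *Myom3* and *Mybpc2* were thus called at P14 in alternative fits only, and *Mybpc2* with the block alone. The pairing behind that block was taken from these same libraries and not from the labels. Both genes were called by the main test at P35.

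**Figure D1:**
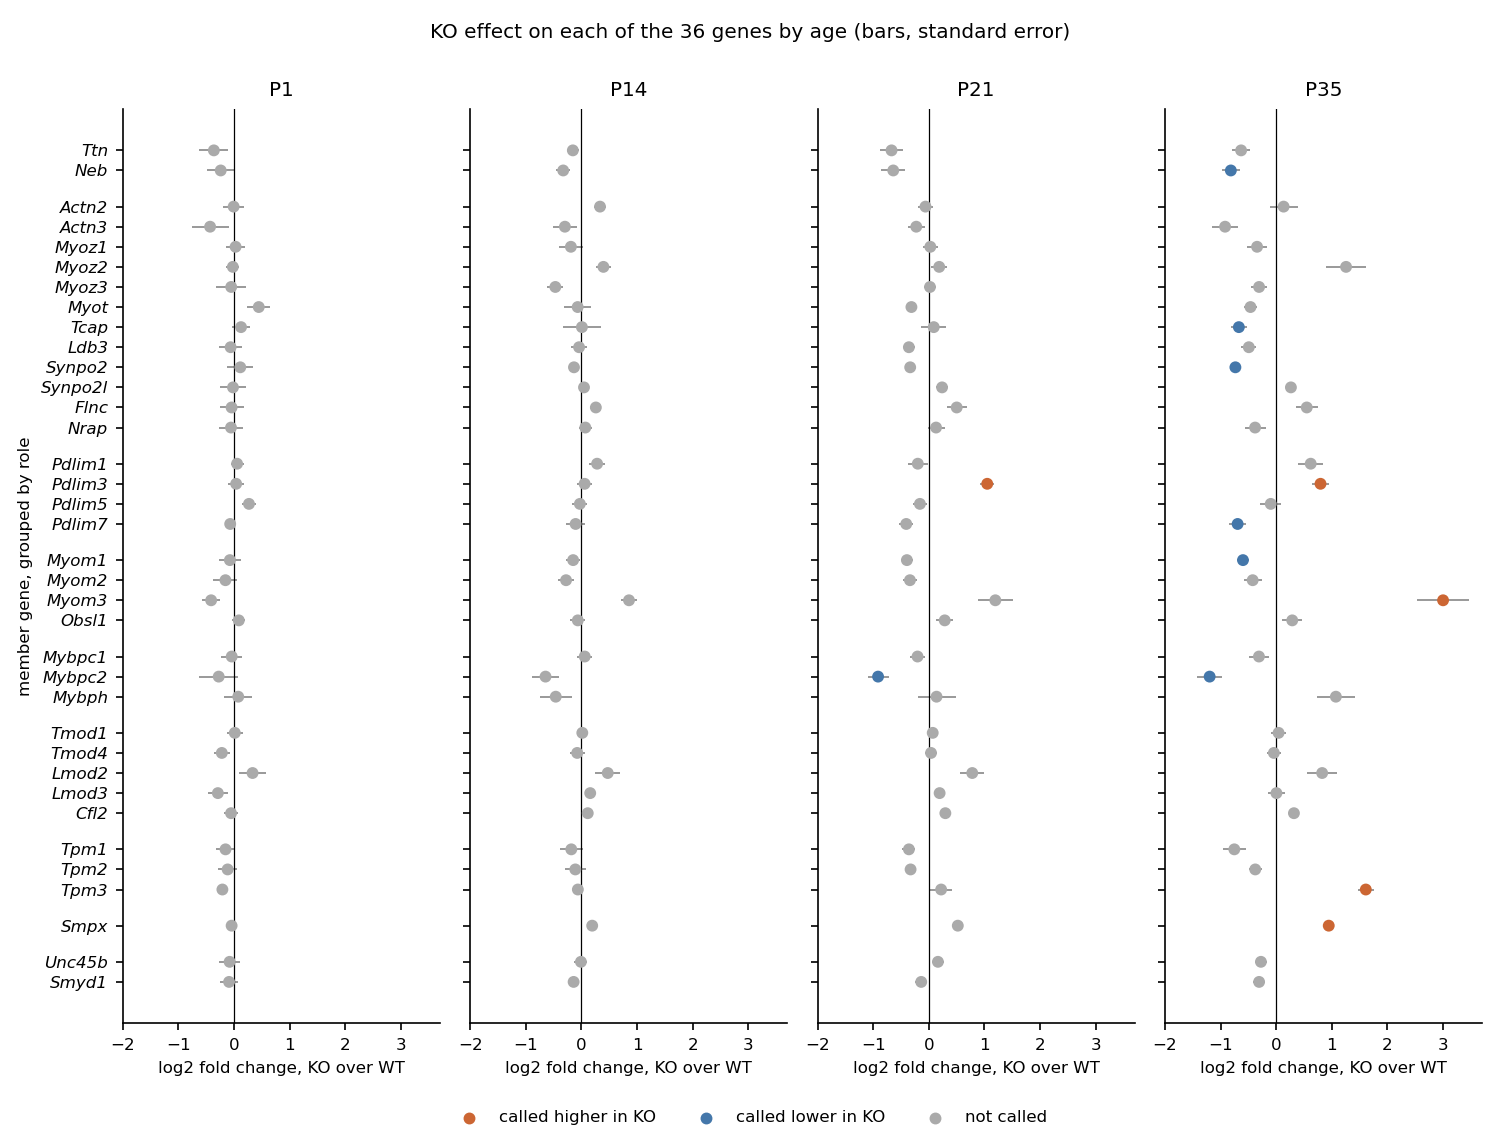
Log2 fold change of KO over WT for each of the 36 genes (rows, grouped by role) at each age (panels); bars are standard errors, and orange and blue points were called higher and lower by edgeR. No gene was called at P1 or P14, 2 were called at P21 and 10 at P35, where *Myom3* reached 3.0.

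At P21 2 members were called, *Pdlim3* higher and *Mybpc2* lower, against 3.18% of 15179 genes called higher and 1.5% called lower. The share of the members called is close to that of all genes, and their median log2 fold change was 0.02. *Pdlim3* encodes ALP, a PDZ and LIM domain protein that binds alpha-actinin at the Z-disc. It stood at 383, 352, 282 and 407 CPM in WT at P21 and at 781, 826, 659 and 656 CPM in KO, so the lowest KO library was well above the highest WT library. The log2 fold change was 1.05 (SE 0.12, adjusted p = 8.1e-04 by edgeR's quasi-likelihood test). At P14 the same gene was at 338 to 479.7 CPM in WT libraries and 357 to 454 CPM in KO libraries. The KO effect was larger at P21 than at P14 by 0.98 on the log2 scale (adjusted p = 0.015 by edgeR, over the threshold of 0.01). The adjusted p was 0.0068 by edgeR with the replicate block and 0.0017 by DESeq2. That block also pairs libraries of the other ages by number, and at P21 same-numbered libraries gave r from -0.0786 to 0.317.

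*Mybpc2* at P21 stood at 6326, 5597, 3573 and 7029 CPM in WT and at 2578, 2709, 3350 and 3201 CPM in KO, with the lowest WT library just above the highest KO library. Its log2 fold change was -0.91 (SE 0.19, adjusted p = 0.0097 by edgeR), next to the threshold, and it stayed called in 1 of 8 fits that left out a library. The adjusted p in those fits ran from 0.0017 to 0.033. A further 9 members had an adjusted p under 0.05 without being called, of which 3 are given here as values chosen after they were seen. *Smpx* had a log2 fold change of 0.52 (adjusted p = 0.0042) and *Synpo2* of -0.34 (adjusted p = 0.0093), both under 1.5-fold by edgeR. *Myom3* lay at 1.196 (SE 0.31, adjusted p = 0.025 by edgeR).

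The *Myom3* value turned on WT replicate 4, the library with the high slow fibre marker level. The WT libraries at P21 stood at 64.2, 61.2, 118 and 158 CPM and the KO libraries at 217, 262, 277 and 159.6 CPM. Without WT replicate 4 the log2 fold change was 1.498 (adjusted p = 0.0091 by edgeR) and *Myom3* was called, while *Mybpc2* was not (-0.79, adjusted p = 0.021). At the looser threshold of an adjusted p under 0.05 with no fold minimum, 11 of the 36 members passed at P21, 5 higher and 6 lower, against 21% of all genes.

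At P35 10 members were called, 4 higher in KO and 6 lower, against 8.49% of 15595 genes called higher and 7.52% called lower. The higher genes were *Tpm3*, *Myom3*, *Smpx* and *Pdlim3*, and the lower genes were *Neb*, *Tcap*, *Synpo2*, *Pdlim7*, *Myom1* and *Mybpc2*. The 26 others ran from -0.92 to 1.26 on the log2 scale. The median of the 36 was -0.29 against 0.0352 for all genes. For 18 members the 4 KO libraries did not overlap the 4 WT libraries, 6 higher and 12 lower, against 39.6% of all genes. In whole-muscle RNA, fewer cells of a type and less RNA per cell cannot be told apart.

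Among the giant filament genes, *Neb* encodes nebulin, the thin filament ruler. It stood at 6679, 4530, 5541 and 6212 CPM in WT at P35 and at 3296, 3770, 2785 and 2977 CPM in KO, and no KO library reached the lowest WT library (log2 fold change -0.82, SE 0.16, adjusted p = 0.0031 by edgeR). *Ttn*, which encodes titin, ran from 4731 to 6999 CPM among WT libraries and from 3131 to 4479 CPM among KO libraries, also without overlap, and had a log2 fold change of -0.63 that missed the threshold (adjusted p = 0.012 by edgeR). Both genes had similar values at P21 (-0.64 and -0.67) with overlapping groups. Transcripts of this length are sensitive to RNA integrity, and genes with over 8000 bases of exon, 8 members among them, had a median log2 fold change of -0.119 at P35 against 0.0352 for all genes. These 8 also include *Synpo2* and *Myom1*, both called lower, and *Flnc* and *Obsl1*, which had positive values. The part of transcript length in the values of *Neb*, *Ttn*, *Synpo2* and *Myom1* was not tested.

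Among the 12 Z-disc genes, 2 fell and 10 were not called. *Tcap* stood at 2810, 2299, 3290 and 2576 CPM in WT at P35 and at 1978, 1694, 1571 and 1533 CPM in KO (log2 fold change -0.67, SE 0.14, adjusted p = 0.0046 by edgeR). At P21 its libraries had overlapped, WT running from 925 to 1582 CPM and KO from 974 to 1783 CPM. *Synpo2*, which encodes myopodin, an actin-bundling Z-disc protein, stood at 1002, 876, 955 and 997 CPM in WT and at 628, 609, 502 and 525 CPM in KO (log2 fold change -0.73, SE 0.10, adjusted p = 6.1e-04 by edgeR). This was among the tightest differences of the set, with an SD of 58.2 CPM among WT libraries and 61.8 CPM among KO libraries.

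No alpha-actinin or myozenin gene passed the threshold. *Actn3* ran from 5020 to 9388 CPM among WT libraries and from 2640 to 4538 CPM among KO libraries (log2 fold change -0.92, adjusted p = 0.011 by edgeR), while *Actn2* had a value of 0.13 (adjusted p = 0.70). *Myoz2* ran from 54.3 to 112 CPM in the WT group and from 100.5 to 298 CPM in the KO group (1.26, adjusted p = 0.021), and *Myoz1*, the fast fibre calsarcin, had a value of -0.34 (adjusted p = 0.14). Of the others, *Myot*, which encodes myotilin, had a log2 fold change of -0.46 and *Ldb3* of -0.49, both with KO libraries below every WT library, and *Flnc* one of 0.55.

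The 4 PDZ and LIM genes moved in both directions. *Pdlim3* was again higher in KO, at 683.5, 749, 703 and 825 CPM against 467, 474, 308 and 484 CPM in WT (log2 fold change 0.80, SE 0.15, adjusted p = 0.0023 by edgeR). *Pdlim7*, which encodes enigma, stood at 269, 207, 178.5 and 206 CPM in WT and at 149, 100.5, 130.3 and 144 CPM in KO (-0.69, SE 0.15, adjusted p = 0.0058). *Pdlim1* had a value of 0.62 (adjusted p = 0.053) and *Pdlim5* of -0.10 (adjusted p = 0.70). Per exonic length, *Pdlim3* was 43.25% ± 3.09 (SD, n = 4) of the summed level of the 4 genes in WT and 61.3% ± 4.34 in KO at P35, and *Pdlim7* was 23.0% ± 2.76 and 11.6% ± 2.43. At P14 the shares of *Pdlim3* were 43.6% ± 1.10 and 45.0% ± 0.861, and at P21 they were 38.2% ± 0.965 and 60.5% ± 2.79.

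In the M-band, *Myom3* rose and *Myom1* fell. *Myom3* stood at 36.1, 19.9, 41.7 and 20.9 CPM in WT at P35 and at 264, 429, 119.0 and 119 CPM in KO, the widest gap of the set. Its difference of 3.0 on the log2 scale (SE 0.46, adjusted p = 9.9e-04 by edgeR) is 8.0-fold, and the KO libraries differed among themselves by over 3 times. *Myom1*, the myomesin of all striated muscle, stood at 1723, 1518, 1673 and 1848 CPM in WT and at 1111, 1141, 989 and 1153 CPM in KO (-0.60, SE 0.10, adjusted p = 0.0015), a fold change of 1.51 just past the minimum of 1.5. *Myom1* overlaps *Myl12a* on the other strand (257 CPM on average), and the strand setting of the counting is not given in the sources used here. *Myom2*, the fast fibre M-protein, had a value of -0.42 (adjusted p = 0.062) and *Obsl1* of 0.29 (adjusted p = 0.23). Per length, *Myom3* made up 1.12% ± 0.508 (SD, n = 4) of the myomesins in WT at P35 and 11.1% ± 7.28 in KO, with KO libraries at 5.29% to 20.9%, against 9.68% to 11.51% in WT libraries at P1.

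Of the thick filament binding proteins, *Mybpc2* fell. It stood at 6912, 4672, 3204 and 5137 CPM in WT at P35 and at 2506, 1735, 1972 and 2337 CPM in KO (log2 fold change -1.196, SE 0.23, adjusted p = 0.0027 by edgeR). All KO libraries were below all WT libraries. *Mybpc1*, the slow isoform, which fast muscle also expresses, had a value of -0.31 (adjusted p = 0.19), and *Mybph*, the smaller protein H, one of 1.07 (adjusted p = 0.033) with overlapping groups. Per length, *Mybpc2* was 60.2% ± 6.77 (SD, n = 4) of the *Mybpc1* and *Mybpc2* sum in WT and 46.35% ± 6.62 in KO, and WT replicate 3, at 50.6%, lay among the KO libraries.

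**Figure D2:**
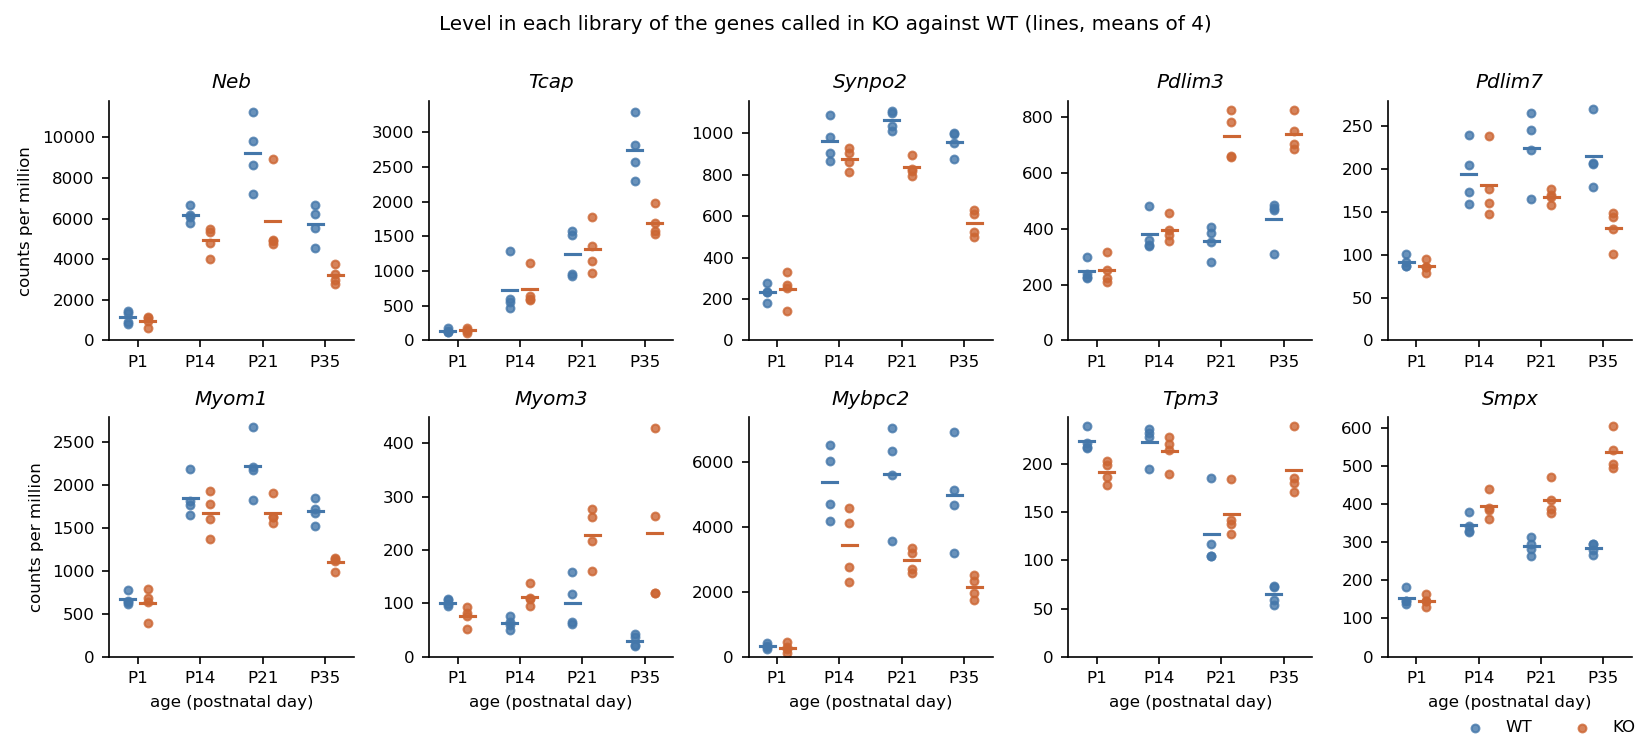
Level in each library (points, CPM on a linear axis from 0) by age for the 10 genes called in KO against WT, with WT in blue, KO in orange and lines at the means of 4. *Pdlim3* separates from P21 on, *Tpm3* separates at P35, where WT libraries lie at 53.7 to 73.8 CPM and KO libraries at 171 to 239.8 CPM, and *Mybpc2* lies lower in KO from P14 on with overlap at P14.

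Of the 3 tropomyosins, which block myosin sites along the thin filament, *Tpm3* rose. It stood at 53.7, 73.8, 72.3 and 59.2 CPM in WT at P35 and at 171, 239.8, 180.5 and 186 CPM in KO (log2 fold change 1.61, SE 0.14, adjusted p = 9.6e-05 by edgeR), the smallest adjusted p of the set. At P21 its libraries had overlapped, with 104, 104, 117 and 186 CPM in the WT group and 138, 185, 142 and 128 CPM in KO (0.22, adjusted p = 0.45). The KO effect was larger at P35 than at P21 by 1.38 (adjusted p = 6.7e-04 by edgeR), and *Tpm3* was the 1 member so called, against 0.463% of 18583 genes. In a fit of only the 16 libraries of those ages the difference was 1.39 (adjusted p = 0.019) and was not called. *Tpm3* encodes both a slow muscle tropomyosin and cytoplasmic forms, which gene counts do not separate.

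*Tpm1*, the fast alpha-tropomyosin, ran from 11051 to 19099 CPM among WT libraries and from 7266 to 11216 CPM among KO libraries (-0.75, adjusted p = 0.018 by edgeR), and *Tpm2*, beta-tropomyosin, at 9582 to 10116 CPM and 6759 to 8218 CPM (-0.38, adjusted p = 0.030). Neither was called. Per length, *Tpm3* was 0.183% ± 0.0418 (SD, n = 4) of the 3 tropomyosins in WT at P35 and 0.801% ± 0.21 in KO, against 0.646% ± 0.136 and 0.679% ± 0.145 at P14.

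**Figure D3:**
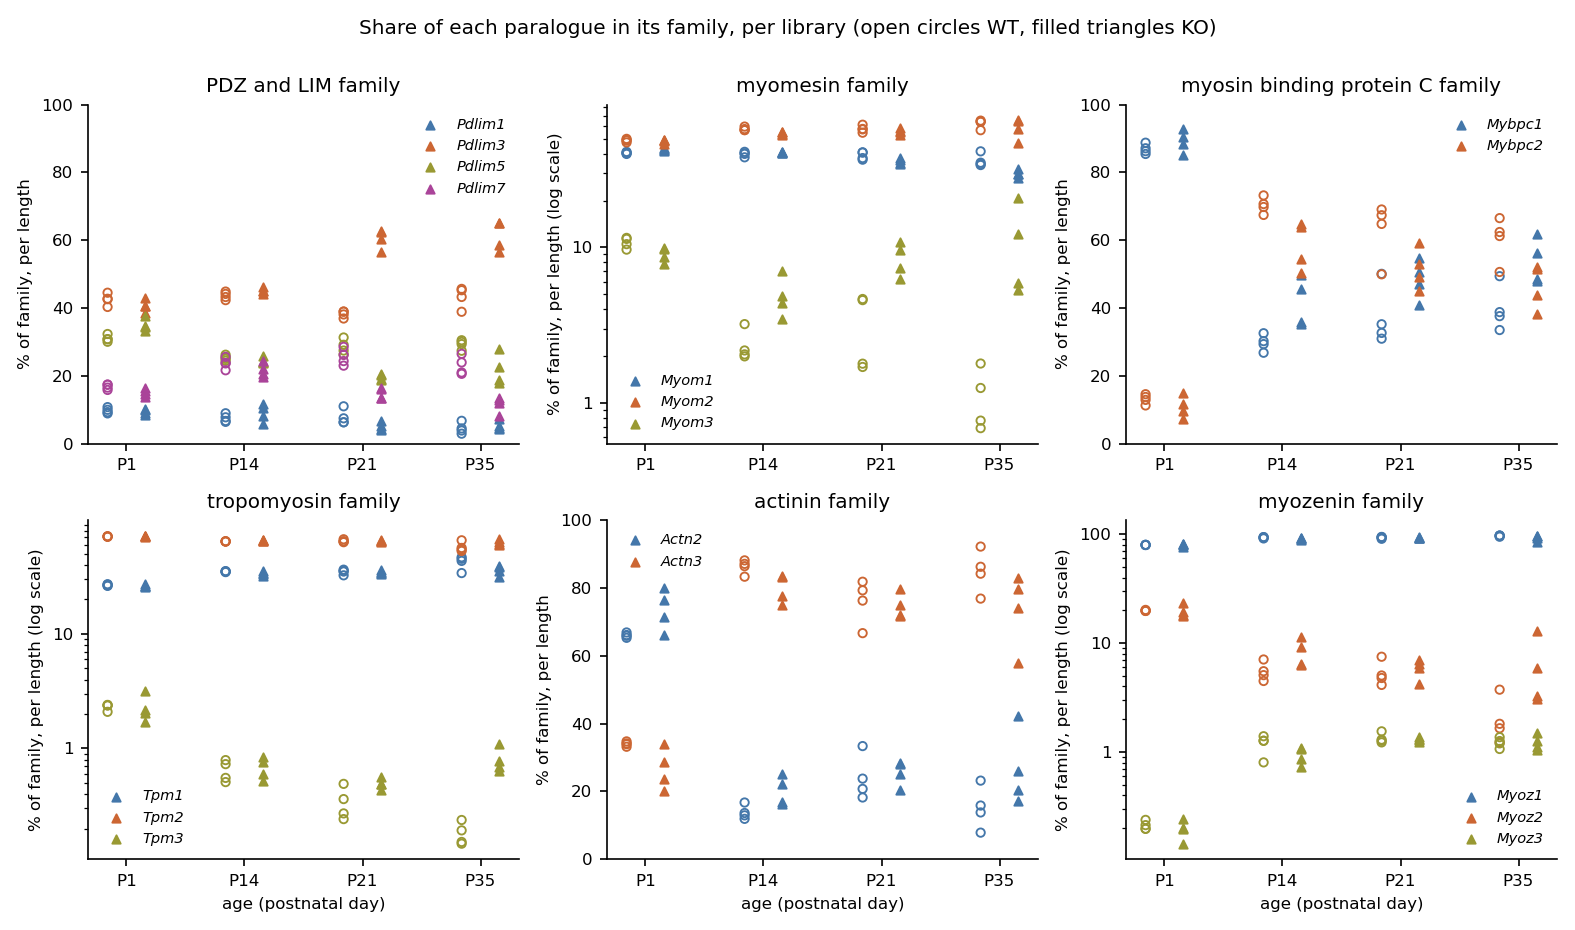
Share of each paralogue in the summed CPM per kilobase of exon of its family, in percent, for 6 families by age; open circles are WT libraries, filled triangles KO libraries, and the tropomyosin, myomesin and myozenin panels have log axes. *Pdlim3* takes 56.6% to 65.0% of its family in KO at P35 against 38.9% to 45.6% in WT, and *Myom3* and *Tpm3* lie higher in every KO library than in every WT library at P35.

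*Smpx*, which encodes a small protein of costameres, rose. It stood at 279, 294.5, 267 and 294 CPM in WT at P35 and at 542, 506, 496 and 605 CPM in KO (log2 fold change 0.94, SE 0.09, adjusted p = 1.1e-04 by edgeR). The KO effect on it had been 0.19 at P14 and 0.52 at P21, and the difference between P35 and P21 did not pass the threshold (DESeq2: 0.42, adjusted p = 0.041).

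The 5 genes of thin filament length and actin turnover were not called, nor were the 2 assembly factors. *Lmod2*, a leiomodin that nucleates actin, had log2 fold changes of 0.78 at P21 (adjusted p = 0.033 by edgeR) and 0.83 at P35 (adjusted p = 0.036), and *Lmod3* had 0.00 at P35. *Tmod1* and *Tmod4*, which cap the pointed end, had 0.04 and -0.04 at P35, with standard errors of 0.13 and 0.12. *Cfl2*, the muscle cofilin, was higher in every KO library at P21 and P35 (0.30 and 0.32; adjusted p = 0.024 and 0.010), under 1.5-fold. *Unc45b* and *Smyd1*, the myosin chaperone and its partner, had -0.27 and -0.31 at P35.

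At P21 and P35, which share no library, 28 of the 36 genes had a KO effect of the same sign, 13 higher and 15 lower, and for 31 the effect was larger at P35. The shares of all genes with the same sign or a larger effect are not given here. Calls over all genes rose from 709 of 15179 at P21 to 2496 of 15595 at P35. The difference between these ages was called for 1 member, *Tpm3*. At an adjusted p under 0.05 with no fold minimum, 22 members passed at P35, 9 higher and 13 lower, against 41.4% of all genes.  When each library was left out in turn at P35, *Tpm3*, *Myom3*, *Smpx*, *Pdlim3*, *Mybpc2* and *Synpo2* stayed called in all 8 fits, *Neb* and *Myom1* in 6, *Pdlim7* in 4 and *Tcap* in 3. Without WT replicate 4, or without KO replicate 3, 6 members were called.

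Scaling moved the balance of directions. With scaling by library totals in place of TMM, the median of all genes at P35 was 0.44. Then 12 members were called higher and 1 lower (*Mybpc2*), against 4 and 6. Of all genes called with library totals 93.03% were higher, against 53.04% of those called with TMM. *Neb*, *Tcap*, *Synpo2*, *Pdlim7* and *Myom1* kept negative values, from -0.41 to -0.19, that were not called. The members' median lay below that of all genes by 0.33 with TMM and by 0.32 with library totals. A change of scaling shifts all genes by nearly the same amount. This difference could therefore hardly move, and it does not bear on which calls hold. Mitochondrially encoded genes took 12.35% to 17.9% of the counts of WT libraries at P35 and 10.3% to 10.52% of those of KO libraries.

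Markers of slow fibres were also higher in KO at P35. The summed level of 8 slow fibre markers, among them the slow myosin heavy chain *Myh7* and the slow troponins, at P35 was 128 to 273 CPM among WT libraries and 1025 to 2412 CPM among KO libraries, and 6 of the 8 were called higher, none lower (*Tnni1*, log2 fold change 4.50). None of the 8 is a member. In WT the sum was 1182 to 1530 CPM at P14 and 433 to 1254 CPM at P21, ranges that overlap through WT replicate 4 of P21, and in KO it was 1404 to 1524 CPM at P14 and 828 to 1259 CPM at P21. The KO library with the highest sum at P35, replicate 2, was also the KO library with the highest *Tpm3*, *Myom3*, *Myoz2* and *Actn2*, and WT replicate 4 at P21 had the highest sum and the highest *Tpm3* and *Myom3* of its group but the lowest *Actn2* (2300 CPM against 2839 to 3117), and its *Myoz2* (169 CPM) was under the 173 CPM of replicate 3. How much of the change in *Tpm3* and *Myom3* follows the share of slow fibre RNA was not tested.

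**Figure D4:**
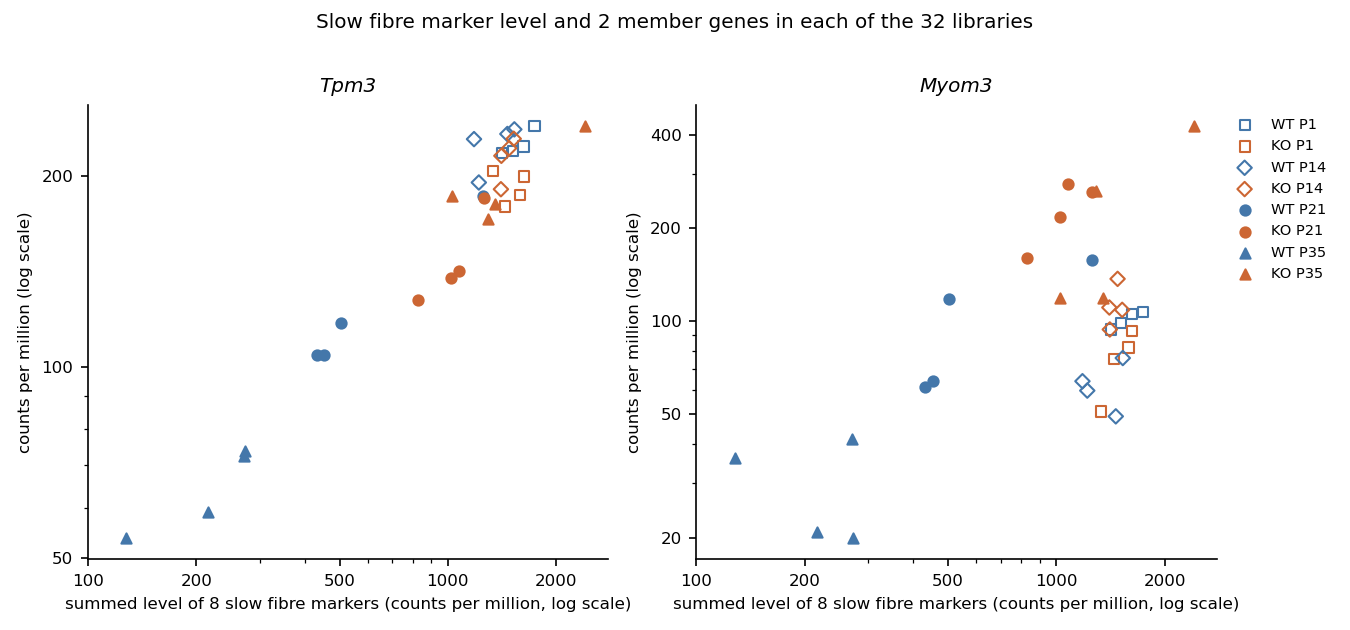
Level of *Tpm3* and *Myom3* (CPM, log axis) against the summed level of 8 slow fibre markers (CPM, log axis) in each of the 32 libraries; colour is genotype and shape is age. WT libraries of P35 lie at the lower left, at sums of 128 to 273 CPM, KO libraries of P35 at 1025 to 2412 CPM, and WT replicate 4 of P21 lies at 1254 CPM among the KO libraries.

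Other marker lists moved as follows at P35. The 10 skeletal muscle fibre markers, none of them a member, had a median log2 fold change of -0.51, with 1 called higher and 2 lower. Their summed level was 106450 to 164998 CPM among WT libraries and 73640 to 103120 CPM among KO libraries. The 7 fast 2B fibre markers, of which *Actn3* is also a member, had a median log2 fold change of -0.60 and 1 was called lower, with a summed level of 84426 to 151606 CPM among WT libraries and 51858 to 87708 CPM among KO libraries. Of 7 developmental fibre markers 6 were called higher and 1 (*Actc1*) lower. Their summed level was nonetheless lower in KO, at 2193 to 2771 CPM among WT libraries and 297 to 819 CPM among KO libraries. None of the smooth muscle, fibroblast, tendon or Schwann cell markers was called, nor were the 3 of 6 cardiac and 2 of 6 keratinocyte markers that could be tested. The 6 Schwann cell markers had a median log2 fold change of 1.42 without a call, and summed to 95.8 to 598 CPM among WT libraries and 318 to 1277 CPM among KO libraries. Of the 6 cardiac markers, 5 had means under 1 CPM in both genotypes, and *Myl7* and *Nppa* were at 0 in WT. Of 6 markers each, 3 endothelial ones were lower, and 3 macrophage and 4 adipocyte ones were higher. At P21, where *Pdlim3* was called, 0 of the 8 slow fibre markers were called, with a median log2 fold change of 0.84. Other marker lists did hold calls at P21. Of the 7 developmental fibre markers 3 were called higher and 1 lower (median 1.36). Their summed level was 2599 to 9363 CPM in WT and 461 to 719 CPM in KO. Of the 6 macrophage markers 2 were called higher, and of the 10 skeletal muscle fibre markers 1. The part of these cell types in the members' values was not tested.

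Among 40 related sarcomere genes and paralogues outside the set, 39 were tested at P35, of which 3 were called higher and 6 lower. Over all genes 8.49% were called higher and 7.52% lower. The 3 called higher were *Csrp3*, the muscle LIM protein (log2 fold change 2.41, adjusted p = 0.0047 by edgeR), *Trim63*, the ubiquitin ligase MuRF1 (1.28, adjusted p = 1.7e-04), and *Pdlim2* (1.07, adjusted p = 0.0026). Among the lower ones were *Capn3*, the titin-bound protease calpain 3 (-0.82), and *Smyd2*, a methyltransferase that binds titin (-2.11). *Csrp3* and *Trim63* were also the 2 genes of this list called at P21 (1.85 and 1.36), where 3.18% of all genes were called higher.

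The KO effect at P35 was then set against the normal change from P1 to P14, comparisons that share no library. Of the 25 members that rose in WT from P1 to P14, 19 (76%) had a negative KO effect at P35, and 6 were called lower and 2 higher. For all 4248 genes that rose, 72.7% had a negative effect and 19.6% were called lower, against 24% of the 25 members. Called higher were 120 of the 4248 genes, against 2 of the 25 members. The 2 members that fell from P1 to P14, *Myom3* and *Myoz2*, both had positive KO effects at P35, and of the 3790 genes that fell 20.45% had a negative one. Across the 36 members Pearson's r between the 2 log2 fold changes was -0.67 and Spearman's rho -0.73, and across all 15356 genes tested in both they were -0.46 and -0.48. Genes of a library are not independent replicates, and the keratinocyte RNA at P1 enters the first axis. 

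**Figure D5:**
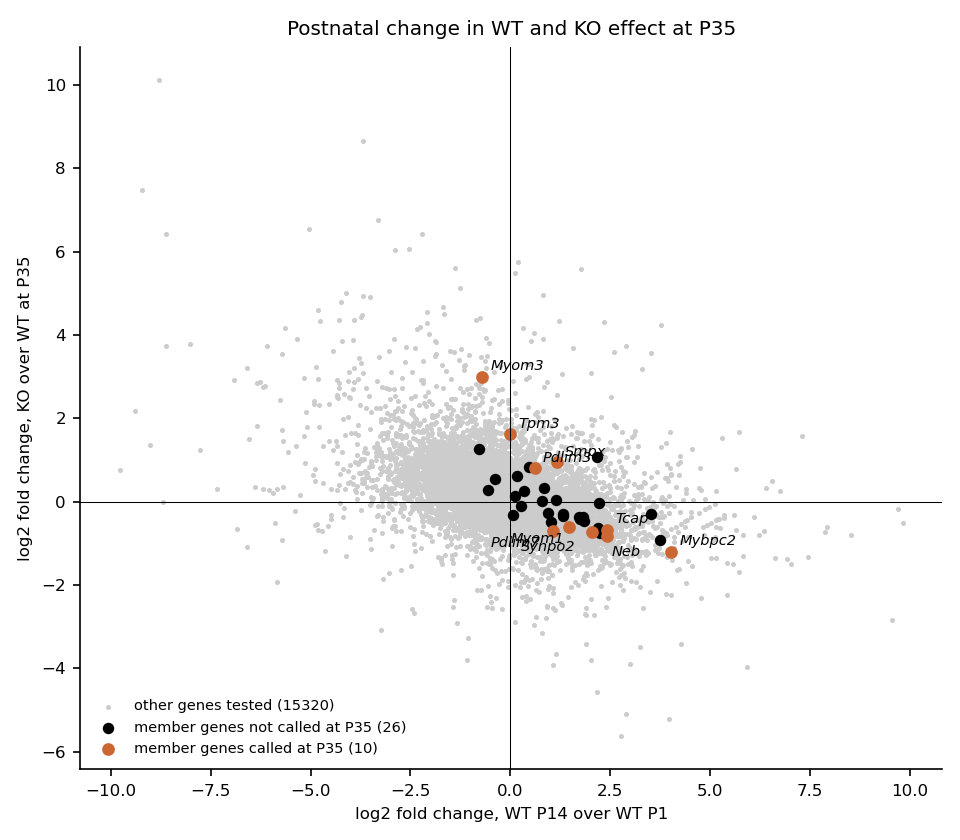
Log2 fold change from P1 to P14 in WT (horizontal) against log2 fold change of KO over WT at P35 (vertical) for all genes tested in both; orange points are the 10 members called at P35, black points the 26 others and grey points the remaining 15320 genes. *Mybpc2*, with the largest rise of 4.03, lies at -1.196, and *Myom3*, which fell by 0.71, lies at 3.0.

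Compared per length, *Tpm2* (3373 CPM per kilobase of exon), *Tcap* (2894), *Tpm1* (2536) and *Actn3* (2502) led the 36 genes in WT at P35 and *Tpm2* (2554), *Tcap* (1787), *Tpm1* (1480) and *Actn3* (1302) led in KO, with SDs of 574 for *Tpm1* and 617 for *Actn3* in WT so these 2 neighbours did not differ beyond their spread. *Myom3* was the lowest in WT, at 4.91 CPM per kilobase. The 36 genes summed to 66106 to 83937 CPM per WT library at P35 and 49085 to 55892 CPM per KO library, and to 75852 to 100410 and 65743 to 76136 CPM at P21. These sums rest on TMM scaling. As a share of the counts of a library, without that scaling, the genotypes overlapped at both ages. At P35 the share was 5.04% to 6.15% in WT and 4.92% to 5.49% in KO. At P21 it was 6.37% to 7.32% in WT and 5.94% to 6.70% in KO.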

How the data were processed

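RNA was made into poly(A)-selected, strand-specific libraries (NEBNext Ultra II Directional) and sequenced in pairs. The authors deposited 1 table of RSEM expected counts per gene on GRCm38, with no normalization (STAR 2.6.1 and RSEM 1.2.22 per the processing notes; the methods also name HTSeq). The annotation release and strand setting are not given in the sources used here.

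Expected counts were rounded and fitted within each comparison with edgeR 4.0.16 (R 4.3.3; TMM scaling, filterByExpr, quasi-likelihood test, Benjamini-Hochberg adjustment over all genes tested). A gene was called at an adjusted p under 0.01 and a fold change over 1.5, and for differences between ages, fitted over all 32 libraries, at the first alone. The text names members called in KO, their paralogues and the 3 related genes with the smallest adjusted p in each direction, of which 1 is not reported here. CPM were scaled once over all libraries. Levels per length were divided by the exonic length in GENCODE M21. The members and lists were chosen with earlier results of these data known. The test was checked on simulated counts.

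Same-numbered WT and KO libraries deviated together at P14 (r = 0.486 to 0.84 in 4 of 4 pairs), which is the source of the pairing used there, and not at the other ages. At P14, 3 of the 4 WT libraries had their highest r with the same-numbered KO library. WT replicate 2 had 0.651 with its own number and 0.728 with another, and WT replicate 1 had 0.571 and 0.559. The labels do not say that libraries are separate animals, so p-values measure the spread between libraries. Alternatives were DESeq2 1.42.0, RLE factors, library totals, other filters, removal of mitochondrially encoded genes, the block and leaving out each library.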

Additional observations from a re-analysis of the deposited data

Results flagged for a closer look

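The *Pdlim3* level of WT replicate 3 at P35, 308 CPM, stood apart from the other 3 WT libraries of that age, which lay at 467 to 484 CPM. Of 24 groups of 4 libraries examined in this way, for the 12 calls of KO against WT, 1 was far enough from the rest by Dixon's criterion, and chance alone marks about 1 in 20. Without that library the gene was still called.

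The KO effect on *Tpm3* was larger at P35 than at P21 by 1.38 on the log2 scale, which passed the test of the difference between ages in the fit of all 32 libraries and did not pass it in the fit of 16.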

How the results depend on the processing

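Counts of members called were compared with the main ones (0, 0, 2 and 10 for KO against WT at P1, P14, P21 and P35). At P14, DESeq2 gave 1 and the replicate block 2. At P21, DESeq2 gave 4, and the block, the fit of all 32 libraries and removal of mitochondrially encoded genes gave 1 each. With an adjusted p under 0.05 and no fold minimum, 11 passed at P21 and 22 at P35, 12 in WT from P14 to P21 and 11 from P21 to P35. For the change of the KO effect from P14 to P21, 1 member (*Pdlim3*) was called by the looser rule, DESeq2, library totals, the block and a minimum of 10 counts in every library, against 0. From P21 to P35, the looser rule, DESeq2 and library totals gave 2, and the fit of 16 libraries 0, against 1. In WT from P14 to P21 the block gave 1 against 4, and from P21 to P35 DESeq2 gave 9, and the fit of all libraries and no low-count filter 6, against 3. The cause of these moves was not tested. Shares over all genes for these settings are given only where stated above.

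When 1 library was left out, the counts ran from 1 to 3 at P21, from 6 to 12 at P35, from 1 to 8 in WT from P14 to P21 and from 0 to 2 from P21 to P35. The lowest count at P35 came without WT replicate 4 and without KO replicate 3. From P21 to P35 in WT it came without WT replicates 1 or 3 of P21 and without replicate 2 of P35. From P14 to P21 the extremes came without WT P14 replicate 1 (1) and replicate 4 (8). Other settings kept the counts within 1.5 times, including 8 members at P35 with the replicate block, where *Neb* and *Tcap* were lost (adjusted p = 0.013 for each by edgeR). In WT from P21 to P35 the block called 4 members (*Neb*, *Myoz2*, *Ttn* and *Pdlim1*), and of the 3 main calls *Tcap* (adjusted p = 0.023 by edgeR) and *Flnc* (0.010) were lost. Same-numbered libraries gave r from -0.464 to -0.0271 at P1, -0.0786 to 0.317 at P21 and -0.117 to 0.281 at P35. Same-numbered WT libraries gave r from -0.286 to -0.0747 between P14 and P21 and from 0.00728 to 0.371 between P21 and P35. The block was fitted there all the same, as an alternative setting only.

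No call of KO against WT changed sign. The rise of *Pdlim3* from P1 to P14 in WT became -0.17 with library totals. With the median transcript length in place of the exonic length, the share of *Tpm3* in its family at P35 was 0.601% in WT and 2.71% in KO, and that of *Myom3* 0.296% and 3.22%.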
